A study of Rattus norvegicus with 6 samples.

Results

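The mitochondrial carriers of the Slc25 family were examined in kidney cortex from 6 male rats of the Sprague-Dawley strain. The members were the genes whose RefSeq symbol is Slc25a followed by a number, together with the uncoupling protein genes Ucp2 and Ucp3. Ucp1, the uncoupling protein of brown fat, was left out by definition. Of 51 such genes in the RefSeq table, 42 were matched by accession to 85 of the 61537 probes of the array. Of these, 37 genes passed the filter on dim probes and were among the 29647 features tested. The filter asked that a probe be well above background on every array of DPG or of control or of both, so it could keep a gene through the group in which it was brighter. Slc25a6, Slc25a12, Slc25a13, Slc25a26, Slc25a31, Slc25a36, Slc25a40, Slc25a48 and Slc25a52 had no probe matched by accession and were not analysed here.

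The DPG group was 3 rats dosed for 4 weeks with 1000 mg/kg/day of dipropylene glycol (DPG), which is used as a solvent, and the control group was 3 rats given water for 4 weeks. All animals were Crl:CD(SD) males, bought at 5 weeks of age, on a basal diet with tap water. How the doses were given is not stated in these sources. Total RNA of each animal was labelled with Cy3 and hybridised to 1 one-colour Agilent array. The DPG arrays shared a slide and a scan number, and the control arrays shared others, so treatment cannot be told apart from slide or scan. Between 39556 and 43184 probes per array were well above background. The fewest were on control 3, which also held 34 spots with outlier flags. The filter dropped flagged probes, but none of the family's 85 probes, of which 72 were kept, was flagged on any array. Values below are log2 signal with the 75th percentile of each array set to 0. Fold changes are log2 differences, DPG minus control, with the standard error (SE) from limma and n = 3 per group. Signals of different probes depend on the probe and are not compared with each other.

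Mitochondrial carriers are small proteins of the inner membrane that swap metabolites, nucleotides and cofactors between the cytosol and the matrix. They share a fold of repeated membrane-spanning segments, are imported by the carrier translocase without a cleaved matrix signal in most cases, and differ mainly in what they carry. Tubule cells of the renal cortex, above all those of the proximal tubule, are dense in mitochondria. There the carriers supply ATP for sodium transport, feed fatty acids into oxidation and move the acids used in gluconeogenesis and ammonia production.

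As a family the carriers differed little between DPG and control rats. No member passed an adjusted p of 0.05 (limma with Benjamini-Hochberg adjustment over all 29647 features), and neither did any other feature, a called share of 0%. The smallest adjusted p was 0.308 in the family and 0.125 over all features. At an unadjusted p of 0.05, 3 members had higher signal in DPG (Slc25a38, Slc25a27 and Slc25a33), where the background over all features was 6.68%. Slc25a34 was the 1 member with lower signal in DPG, against a background of 5.7%. Together these were 4 of 37 members, or 10.8%, and 12.4% of all features passed in either direction. The members' share thus lay near the background and is not a result about the family. The median log2 fold change was 0.019 over the 37 members and 0.0035 over all features, with 21 members above 0 and 16 below.

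**Figure D1:**
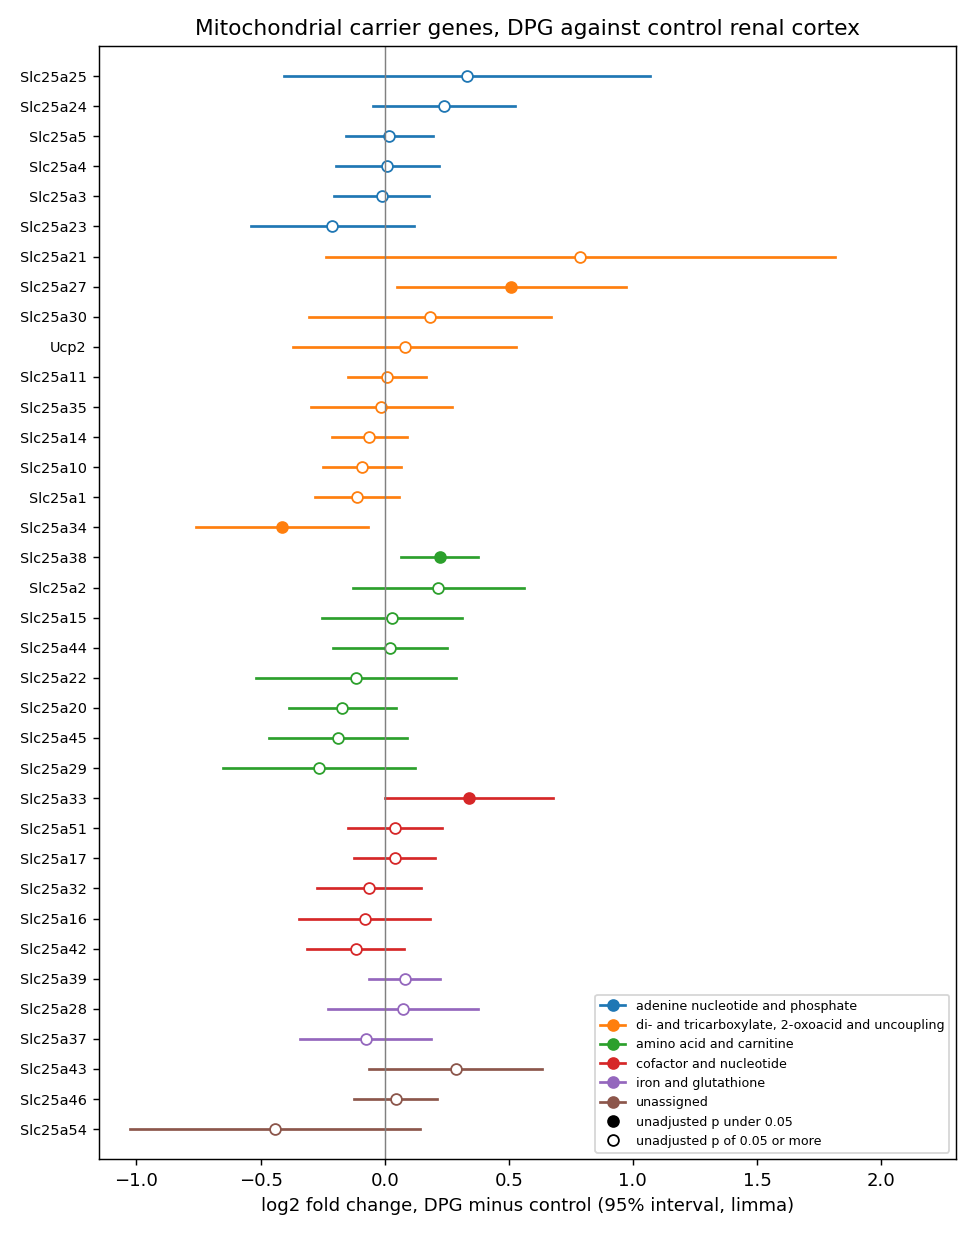
Log2 fold change (DPG minus control) of 36 of the 37 tested carrier genes on the horizontal axis, with its 95% interval from limma, grouped and coloured by substrate class. Filled points passed an unadjusted p of 0.05 (Slc25a27, Slc25a34, Slc25a38 and Slc25a33), and the widest interval is that of Slc25a21, from -0.24 to 1.81.

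The size of the differences was spread as in the rest of the array. A log2 fold change under 0.1 in size was found for 18 members (48.6%, against 44.7% of all features), and one of 0.3 or more for 6 members (16.2%, against 16.3% of all features). For 16 members the 95% interval lay within 0.32 on both sides of 0. The spread between animals was ordinary too, with a median SD over the members of 0.13 in DPG and 0.12 in control, where the medians over all features were both 0.12. DPG and control arrays were fully separated for 6 members (16.2%), where the background was 19.7%. These were Slc25a38, Slc25a27 and Slc25a39 on the higher side (background 10.7%) and Slc25a34, Slc25a1 and Slc25a10 on the lower side (background 8.96%).

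The carriers of adenine nucleotides and phosphate supply oxidative phosphorylation, and their main members read alike in both groups by their brightest probe. Slc25a5, the ADP/ATP exchanger also called Ant2, read 6.68, 6.82 and 6.70 in DPG 1 to 3, against 6.72, 6.76 and 6.65 in controls 1 to 3. Its log2 fold change was 0.019 ± 0.072 (SE), with a 95% interval from -0.16 to 0.20, and its 4 probes lay between 0.011 and 0.054. Slc25a4, the muscle-type ADP/ATP exchanger Ant1, read 5.65, 5.84 and 5.73 in DPG, against 5.70, 5.84 and 5.65 in control. The difference was 0.011 ± 0.085 (SE), with a 95% interval from -0.20 to 0.22, and the arrays of the groups lay over each other. Slc25a3, which brings in phosphate for ATP synthesis as well as copper, read 7.04, 7.16 and 6.96 in DPG, against 7.10, 7.01 and 7.09 in control. Its second probe, designed on another transcript, read 5.54, 5.55 and 5.52 in DPG, against 5.70, 5.70 and 5.55 in control. That probe differed by -0.11 between the groups, where the brighter one differed by -0.011. For the second probe every DPG array lay below every control array, although DPG 2 and control 3 nearly met. The RefSeq table lists 9 pseudogenes of Slc25a5, 2 of Slc25a3 and 1 of Slc25a4, so probes for these genes may also bind copies.

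The calcium-regulated carriers, which exchange ATP-Mg for phosphate and so set the adenine nucleotide pool of the matrix, varied more between animals. Slc25a25 read 6.28, 6.48 and 5.34 in DPG, against 5.77, 5.80 and 5.53 in control. DPG 1 and DPG 2 lay above all controls and DPG 3 below all of them, so the SD was 0.61 in DPG and 0.14 in control. Its log2 fold change was 0.33 ± 0.30 (SE, limma adjusted p = 0.686). Without DPG 3 it was 0.68 (limma adjusted p = 0.231), and without DPG 2 it was 0.11 (limma adjusted p = 0.922). These were the highest and lowest values of Slc25a25 over its 15 alternative settings. Only the fit without DPG 3 was past the unadjusted p threshold, and it drops the animal that lay below the controls. The dimmer probe of Slc25a25 read -1.11, -0.85 and -1.94 in DPG, against -1.11, -1.21 and -1.83 in control, again lowest in DPG 3. Slc25a24, a second ATP-Mg carrier, had -0.070, -0.26 and -0.020 in DPG, against -0.33, -0.19 and -0.54 in control. Its difference was 0.24 ± 0.12 (SE), and DPG 2 lay below control 2. Slc25a23, the third, went the other way at -0.21 ± 0.13 (SE), with the groups overlapping.

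**Figure D2:**
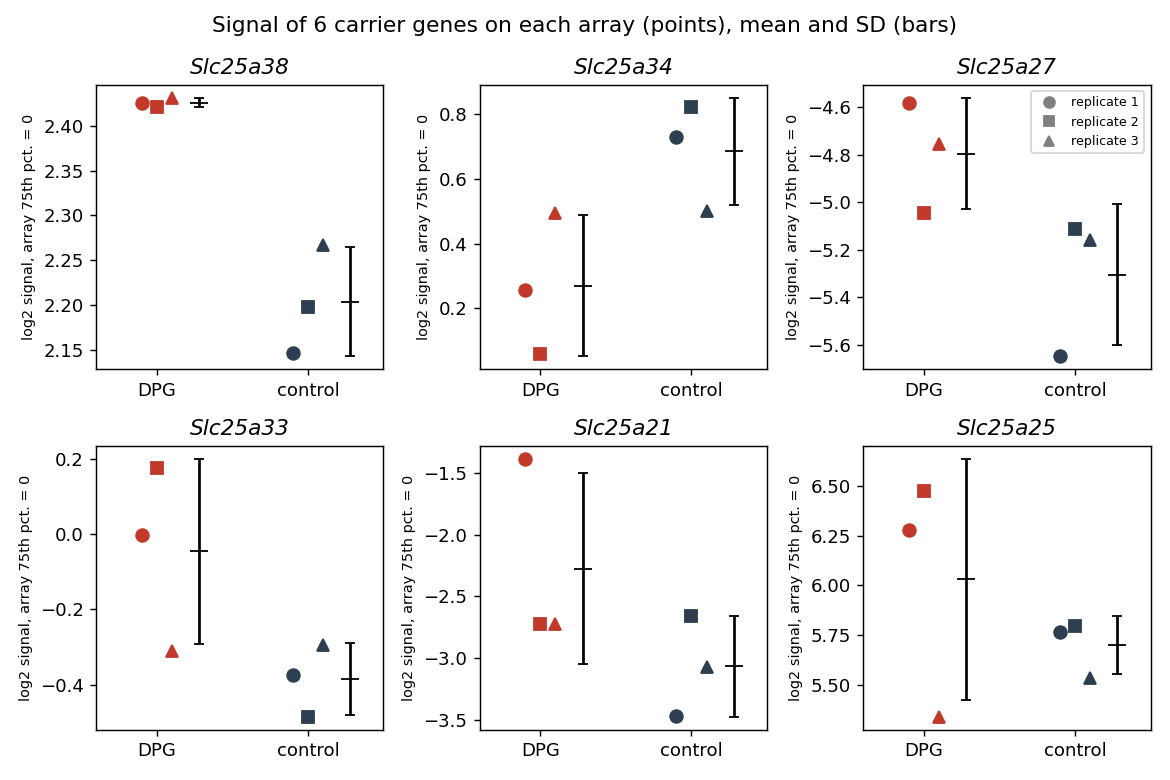
Log2 signal (array 75th percentile set to 0) of 6 carrier genes on each array, DPG left of control, with symbols for replicates 1 to 3 and bars for the mean and SD of each group. Slc25a38 is separated between the groups with an SD of 0.0049 in DPG, while Slc25a21 is set apart by DPG 1 and Slc25a25 by DPG 3.

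The pyrimidine nucleotide carrier gene Slc25a33 had a pattern like that of Slc25a25 in the DPG animals. It read -0.0035, 0.18 and -0.31 in DPG, against -0.38, -0.49 and -0.30 in control. As with Slc25a25, DPG 2 was highest, DPG 1 next and DPG 3 lowest of the DPG arrays, and DPG 3 fell below control 3. Other members had this order in DPG as well, among them Slc25a3 and Slc25a42. The control arrays were ordered differently, with control 3 highest of the controls in Slc25a33 and lowest in Slc25a25. The log2 fold change of Slc25a33 was 0.34 ± 0.14 (SE, limma adjusted p = 0.402), and its 3 probes lay between 0.26 and 0.34. Of the 6 fits with an animal left out, only that without DPG 3 kept it past an unadjusted p of 0.05 (0.47, limma adjusted p = 0.250), and the lowest value was 0.23, without DPG 2. With all arrays it was also not past that p under normexp (0.30), quantile scaling (0.34) and no filter on dim probes (0.34). All 3 probes had this order in the DPG arrays, but only the brightest had DPG 3 below control 3. The groups of the dimmest probe did not overlap. The likeness of the genes was noticed after their values were seen and was not tested.

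The full cAMP response element is the palindrome TGACGTCA, bound by the CREB family of transcription factors. The promoters of Slc25a25 and Slc25a33 are shown because, of the family's promoter windows searched, theirs alone hold that element. Those of Slc25a21, with the largest difference, and of Slc25a34, the member with lower signal in DPG at an unadjusted p of 0.05, are set beside them. Each window runs from 250 bases before to 50 bases after the start of the gene, from RefSeq on the assembly GRCr8, and is written 5′ to 3′ on the strand of the gene. Capitals mark the motifs searched on both strands, which were the GC box GGGCGG, the CCAAT box, the element TGACGTCA, the nuclear receptor element AGGTCA and the TATA box TATAAA. The windows are chr3:36116532-36116831 (- strand) for Slc25a25, chr5:165502924-165503223 (- strand) for Slc25a33, chr6:80437671-80437970 (- strand) for Slc25a21 and chr5:159219843-159220142 (- strand) for Slc25a34.
Slc25a25: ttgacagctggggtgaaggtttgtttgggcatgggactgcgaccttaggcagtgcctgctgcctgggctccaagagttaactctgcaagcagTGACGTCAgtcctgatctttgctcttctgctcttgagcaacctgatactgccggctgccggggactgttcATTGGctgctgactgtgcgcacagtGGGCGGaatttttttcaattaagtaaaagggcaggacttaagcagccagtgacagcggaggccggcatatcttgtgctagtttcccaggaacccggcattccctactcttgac
Slc25a33: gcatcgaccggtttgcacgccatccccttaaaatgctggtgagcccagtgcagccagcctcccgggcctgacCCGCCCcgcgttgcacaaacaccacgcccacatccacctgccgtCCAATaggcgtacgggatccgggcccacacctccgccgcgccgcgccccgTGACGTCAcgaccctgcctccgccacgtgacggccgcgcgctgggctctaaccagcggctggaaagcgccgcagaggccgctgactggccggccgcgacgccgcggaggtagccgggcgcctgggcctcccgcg
Slc25a21: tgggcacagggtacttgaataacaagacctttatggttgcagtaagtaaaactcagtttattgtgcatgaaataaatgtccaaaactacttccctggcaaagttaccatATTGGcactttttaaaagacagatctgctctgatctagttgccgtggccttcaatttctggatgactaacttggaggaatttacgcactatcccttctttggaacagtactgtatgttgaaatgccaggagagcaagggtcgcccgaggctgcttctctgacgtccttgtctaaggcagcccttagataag
Slc25a34: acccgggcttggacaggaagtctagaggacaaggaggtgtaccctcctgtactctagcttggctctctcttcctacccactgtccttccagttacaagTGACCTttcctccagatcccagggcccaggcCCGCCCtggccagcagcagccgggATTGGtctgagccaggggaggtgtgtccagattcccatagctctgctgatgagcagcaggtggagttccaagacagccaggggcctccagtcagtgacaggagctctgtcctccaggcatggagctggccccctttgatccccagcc

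The element TGACGTCA starts at base 93 of the Slc25a25 window and at base 167 of the Slc25a33 window. It was found in 2 of 38 windows of the family (5.26%), which cover 37 of the 42 genes, and in 1.83% of all 33469 windows. A GC box was found in 26 family windows (68.4%, against 33.1% of all), a CCAAT box in 19 (50%, against 37.5%), a nuclear receptor element in 7 (18.4%, against 16.2%) and a TATA box in 1 (2.63%, against 14.2%). Among the windows printed, that of Slc25a34 holds a nuclear receptor element, at base 99, and that of Slc25a21 holds a CCAAT box alone. The median GC content was 58.2% over the family's windows and 51.7% over all windows. No motif shown overlaps another in these 4 windows. A match of letters describes the window and does not show that a factor binds there.

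The carboxylate carriers move the acids of the citric acid cycle. Slc25a11, the 2-oxoglutarate/malate carrier of the malate-aspartate shuttle, read 5.02, 5.02 and 5.08 in DPG, against 5.08, 4.97 and 5.04 in control. Its difference of 0.0082 ± 0.064 (SE) had a 95% interval from -0.15 to 0.16. The second probe of Slc25a11 differed by -0.031, with every DPG array below every control array. Slc25a10, the dicarboxylate carrier, read 5.14, 5.03 and 5.05 in DPG, against 5.15, 5.15 and 5.19 in control, a difference of -0.090 ± 0.064 (SE). Slc25a1, the citrate carrier that feeds lipid synthesis, read 1.88, 1.86 and 1.84 in DPG, against 2.06, 1.95 and 1.90 in control, a difference of -0.11 ± 0.070 (SE). In these last genes every DPG array lay below every control array, by a small step, and the limma adjusted p was 0.607 for Slc25a10 and 0.561 for Slc25a1.

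Slc25a21 encodes the oxoadipate carrier, which serves the breakdown of lysine and tryptophan, and had the largest log2 fold change of the family at 0.79 ± 0.42 (SE), or 1.73-fold (limma adjusted p = 0.500). It read -1.38, -2.72 and -2.72 in DPG, against -3.47, -2.66 and -3.07 in control. DPG 1 alone stood clear of the controls, and DPG 2 and DPG 3 lay just below control 2. The second probe was also highest in DPG 1, with -1.77, -2.82 and -2.53 in DPG, against -3.48, -3.02 and -3.17 in control. Its groups did not overlap, and its difference was 0.85. Without DPG 1 the log2 fold change of the brighter probe was 0.34 (limma adjusted p = 0.730).

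Slc25a34 and its relative Slc25a35 are carriers whose substrates are not settled. Slc25a34 read 0.26, 0.060 and 0.49 in DPG, against 0.73, 0.82 and 0.50 in control. All DPG arrays lay below all controls, although DPG 3 and control 3 nearly met. The log2 fold change was -0.41 ± 0.14 (SE), 1.33-fold lower in DPG, with a limma adjusted p = 0.353. The second probe gave -0.40. The gene was no longer past an unadjusted p of 0.05 without DPG 1 (-0.41), DPG 2 (-0.31), control 1 (-0.39) or control 2 (-0.34). Slc25a35 read 2.01, 2.12 and 2.27 in DPG, against 2.12, 2.33 and 2.00 in control, a difference of -0.014 ± 0.12 (SE). Whether the genes of this pair differ in their response was not tested.

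The uncoupling branch includes proteins that can leak protons or carry small anions. Slc25a27, known as Ucp4 and best known from brain, was close to the detection limit, with its probe above background on 3 of 3 DPG arrays and 2 of 3 control arrays. It read -4.58, -5.05 and -4.76 in DPG, against -5.65, -5.11 and -5.16 in control. The groups were separated by the small gap between DPG 2 and control 2, and the log2 fold change was 0.51 ± 0.19 (SE, limma adjusted p = 0.376). Its second probe gave 0.28, with overlapping groups, and was above background on 3 DPG arrays and 1 control array. Both probes were thus kept through the DPG group alone. Slc25a27 was no longer past an unadjusted p of 0.05 without DPG 1 (0.40), DPG 3 (0.49) or control 1 (0.34). The same held with all arrays under the mean of its probes (0.40) and the trended robust variance (0.51). Slc25a14, a related brain carrier, read 0.46, 0.45 and 0.40 in DPG, against 0.54, 0.46 and 0.50 in control. Its brighter probe differed by -0.061 and its dimmer probe by 0.24, the widest gap in the family among members whose probes disagreed in sign.

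Ucp2, the uncoupling protein found in many tissues and in macrophages, read -0.64, -1.17 and -0.67 in DPG, against -0.95, -0.68 and -1.11 in control. Its log2 fold change was 0.081 ± 0.18 (SE), with a 95% interval from -0.37 to 0.53. Slc25a30, the kidney mitochondrial carrier of this branch, read 3.69, 3.28 and 3.65 in DPG, against 3.13, 3.74 and 3.19 in control, and differed by 0.18 ± 0.20 (SE). In both genes DPG 1, DPG 3 and control 2 were the 3 highest arrays. The mean shift of 6 leukocyte markers was highest on the same arrays, at 0.28, -0.13 and 0.48 in DPG, against -0.11, 0.16 and -0.048 in control. The summed level of those markers ran from 99.9 to 135 in DPG and from 102 to 124 in control. White adipocyte markers (4 of 6 tested, Lep not above background on any array) had their highest mean shift on these arrays, at 0.31, -0.029 and 0.46 in DPG, against -0.12, 0.35 and -0.23 in control. Their summed level was 1.52, 1.15 and 1.64 in DPG, against 1.64, 1.79 and 1.41 in control. By that sum the same arrays were not the highest, since control 1 lay above DPG 1. Fabp4 had a log2 fold change of 1.89, while Adipoq (-0.45), Cfd (-0.29) and Lipe (-0.16) lay below 0, and every DPG array was below every control array for Adipoq. The part of other cell types in the Ucp2 and Slc25a30 values was not tested. In bulk tissue fewer cells of a type and less RNA per cell cannot be told apart.

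Among the carriers of amino acids and carnitine, Slc25a38 had the smallest p of the family. It imports glycine for the first step of heme synthesis. It read 2.42, 2.42 and 2.43 in DPG, against 2.15, 2.20 and 2.27 in control. The DPG arrays were nearly identical and all lay above the controls, and the log2 fold change was 0.22 ± 0.064 (SE), or 1.17-fold (limma adjusted p = 0.308). In all 15 alternative settings the difference stayed between 0.19 and 0.25 and past an unadjusted p of 0.05, while the adjusted p never fell below 0.207. A single probe stands for this gene, and the RefSeq table lists 1 pseudogene of it.

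Slc25a20, which carries acylcarnitines into the matrix for fatty acid oxidation, read 3.09, 3.17 and 3.33 in DPG, against 3.40, 3.42 and 3.28 in control. DPG 3 lay above control 3, and the difference was -0.17 ± 0.088 (SE, limma adjusted p = 0.488). Slc25a15, the ornithine carrier, read 1.62, 1.94 and 1.85 in DPG, against 1.92, 1.68 and 1.72 in control, a difference of 0.029 ± 0.11 (SE). Slc25a2, its retrogene relative, was dim, above background on 3 DPG arrays and 2 control arrays, and differed by 0.22 ± 0.14 (SE). Slc25a22, a glutamate carrier, differed by -0.12 ± 0.16 (SE), and Slc25a44, a carrier of branched-chain amino acids, by 0.021 ± 0.093 (SE). Slc25a29, which takes basic amino acids, read -0.69, -0.70 and -0.71 in DPG, against -0.51, -0.70 and -0.089 in control. The DPG animals were within an SD of 0.010 and the controls spread by an SD of 0.31, so the difference of -0.27 ± 0.16 (SE) rested on controls 1 and 3. The dimmer probe of that gene differed by -0.024. Slc25a45 differed by -0.19 ± 0.11 (SE), with DPG 3 above controls 2 and 3.

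The cofactor carriers described next had a log2 fold change of 0.12 or less in size by their brightest probe, and none had separated groups by that probe. Slc25a51, the carrier of NAD, read 3.95, 3.99 and 4.15 in DPG, against 3.94, 4.02 and 3.99 in control, and its 5 probes lay between -0.085 and 0.042. The dimmest of these read -0.53, -0.59 and -0.51 in DPG, against -0.51, -0.42 and -0.44 in control, with every DPG array below every control array. The brightest probe differed by 0.16 under normexp, past an unadjusted p of 0.05. Slc25a42, which imports coenzyme A, differed by -0.12 ± 0.079 (SE). Slc25a17, the family member of peroxisomes, differed by 0.040 ± 0.066 (SE). The folate and FAD carrier gene Slc25a32 had -0.061 ± 0.085 (SE), and Slc25a16 had -0.081 ± 0.11 (SE). The 3 probes of Slc25a16 lay close together, between -0.086 and -0.067.

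No carrier of iron or glutathione passed an unadjusted p of 0.05. Slc25a39, which brings glutathione into the matrix, read 4.28, 4.27 and 4.28 in DPG, against 4.23, 4.19 and 4.18 in control. Its arrays were separated by a small and even step of 0.081 ± 0.058 (SE, limma adjusted p = 0.610), and the second probe gave 0.048. Under normexp the difference was 0.14 and past an unadjusted p of 0.05. The RefSeq table lists 8 pseudogenes of Slc25a39, so its probes may also bind copies. The mitoferrins import iron for heme and iron-sulfur clusters. Slc25a37 (mitoferrin 1, the form of red cell precursors) differed by -0.076 ± 0.11 (SE), with a 95% interval from -0.34 to 0.19. Slc25a28 (mitoferrin 2, the widespread form) differed by 0.074 ± 0.12 (SE), with a 95% interval from -0.23 to 0.38. The 3 probes of Slc25a28 lay between -0.011 and 0.074.

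Members placed in no class gave no separated groups by their brightest probe. Slc25a46, a protein of the outer membrane that acts in mitochondrial fission, differed by 0.044 ± 0.069 (SE). Slc25a43 was dim and differed by 0.29 ± 0.14 (SE), with its second probe at 0.37. Slc25a54 read -3.93, -4.82 and -4.47 in DPG, against -3.83, -4.19 and -3.87 in control. Its difference of -0.44 ± 0.24 (SE) overlapped through DPG 1, which lay above control 2. The 5 members with a probe but no kept one were Ucp3, Slc25a18, Slc25a41, Slc25a47 and Slc25a53. Neither probe of Ucp3, the uncoupling protein of skeletal muscle, was well above background on any array, and the same held for the single probes of Slc25a41, an ATP-Mg carrier, and Slc25a53. The best probe of Slc25a47, a carrier of liver, was above background on 2 DPG arrays and 1 control array, and that of the glutamate carrier gene Slc25a18 on 1 DPG array and 2 control arrays.

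Different probes of a gene showed how far these values depend on the choice of the brightest one. They read the same RNA on the same arrays, so they are no separate check of a difference between the groups. Of 24 members with several kept probes, 14 had probes of 1 sign throughout. The other 10 had probes of both signs, none of them with a log2 fold change over 0.24 in size. Genes outside the family were not counted in this way. Of the members with larger differences, Slc25a21, Slc25a34, Slc25a33 and Slc25a43, had probes that lay within 0.085 of each other, while those of Slc25a25 were 0.25 apart and those of Slc25a27 were 0.23 apart.

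**Figure D3:**
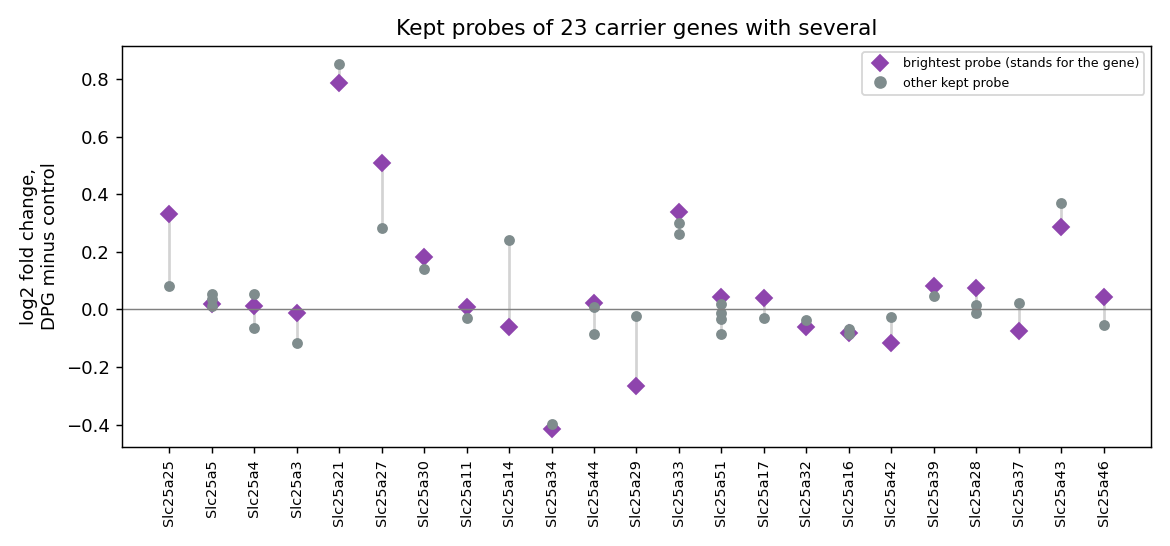
Log2 fold change (DPG minus control) of every kept probe of 23 of the 24 carrier genes with more than 1, with a diamond for the brightest probe and circles for the others. The probes of Slc25a21 (0.79 and 0.85) and of Slc25a34 (-0.41 and -0.40) lie close together, and those of Slc25a14 (-0.061 and 0.24) fall on both sides of 0.

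The enzymes that work with the carriers were counted in the same fit. Of 40 tested enzymes of shuttles and of the matrix, 4 had higher and 3 lower signal in DPG at an unadjusted p of 0.05 (17.5%, background 12.4%), with a median of -0.023, and none passed the adjusted threshold. DPG and control arrays were fully separated for 14 of the 40 enzymes (35%, background 19.7%). Arg2, the mitochondrial arginase that releases ornithine, read 2.42, 2.31 and 2.20 in DPG, against 1.04, 1.51 and 1.58 in control. All DPG arrays lay above all controls, and its log2 fold change was 0.93 ± 0.16 (SE, limma adjusted p = 0.214), beside 0.029 for the ornithine carrier gene Slc25a15. Mthfd2, of mitochondrial folate metabolism, had 0.33 ± 0.088 (SE, limma adjusted p = 0.292), beside -0.061 for the folate carrier gene Slc25a32. Cpt2, which takes over acylcarnitines behind Slc25a20, had -0.28 ± 0.085 (SE, limma adjusted p = 0.327), and the carrier -0.17. Asl, an enzyme of arginine synthesis, had -0.32 ± 0.093 (SE, limma adjusted p = 0.312). Whether an enzyme and its carrier differ in their response was not tested.

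Other transport proteins of the mitochondrial membranes outside the family gave 1 higher and 1 lower of 20 tested at an unadjusted p of 0.05 (10%, background 12.4%), with a median of 0.013. These were Slc8b1, the sodium/calcium exchanger of the inner membrane (0.37 ± 0.11, SE), and Vdac2, a pore of the outer membrane (-0.18 ± 0.064, SE). Of 12 tested genes of carrier import, 1 (8.33%) was past that p. This was Tomm40, the pore of the outer membrane translocase (-0.17 ± 0.066, SE), and the list's median was 0.016. Of 16 tested regulators of mitochondrial genes, 1 (6.25%) was past that p. This was Pparg, a nuclear receptor of lipid storage (0.53 ± 0.15, SE), and the list's median was 0.0034. Their adjusted p in limma ran from 0.304 for Pparg to 0.392 for Tomm40. Groups were fully separated for 7 transport genes (35%), 3 import genes (25%) and 2 regulators (12.5%), where the background was 19.7%. Whether these shares differ from the background was not tested.

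The mean shift of the family, which is the mean over its 37 tested members of log2 signal minus the control mean, was 0.066, 0.027 and 0.0081 in DPG, against -0.0044, 0.047 and -0.042 in control, so the groups overlapped. Marker lists of several nephron segments shifted by more. Straight proximal tubule markers (6 of 6 tested) shifted by 0.49, 0.43 and 0.37 in DPG, against -0.20, 0.051 and 0.14 in control, with summed levels from 381 to 425 in DPG and from 203 to 280 in control. These did not all go one way, since Slc22a13, Slc7a13, Slc22a2 and Slc22a7 had log2 fold changes from 0.69 to 0.78, while Slc5a10 (-0.23) and Slc5a1 (-0.12) lay below 0. Thick ascending limb markers (5 of 5) shifted by 0.35, 0.44 and 0.35 in DPG, against -0.059, 0.10 and -0.045 in control, with summed levels from 630 to 681 in DPG and from 521 to 563 in control. Convoluted proximal tubule markers (7 of 7) shifted by -0.26, -0.21 and -0.23 in DPG, against 0.041, -0.10 and 0.060 in control, with summed levels from 904 to 990 in DPG and from 1004 to 1131 in control. Collecting duct markers (6 of 6) shifted by -0.28, -0.061 and -0.37 in DPG, against 0.043, -0.032 and -0.010 in control, with summed levels from 191 to 246 in DPG and from 226 to 237 in control. These did not all go one way either, since Aqp2 (0.17) lay above 0 and the other 5 below it. Groups were fully separated for 3 of the 6 (50%, background 19.7%), each lower in DPG. Podocyte markers (6 of 6) shifted by -0.34, -0.19 and -0.017 in DPG, against 0.29, -0.12 and -0.17 in control, so these list means overlapped, with summed levels from 29.2 to 36.0 in DPG and from 31.4 to 39.7 in control. By gene, all 6 had a log2 fold change below 0. Groups were fully separated for Ptpro (-0.22), Wt1 (-0.19) and Nphs1 (-0.28), or 50% against a background of 19.7%. The part of these marker shifts in the carrier values was not tested. As a check of the labelled tissue, all of these segment markers and all 6 podocyte markers had a kept probe. Of 5 adrenal cortex markers 2 were tested. These were Cyp17a1, above background on 6 arrays, and Cyp11a1, above it on 5. For Cyp17a1 (-0.41) every DPG array lay below every control array. Cyp11b2 was above background on 2 arrays, and Star and Cyp11b1 on none.

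**Figure D4:**
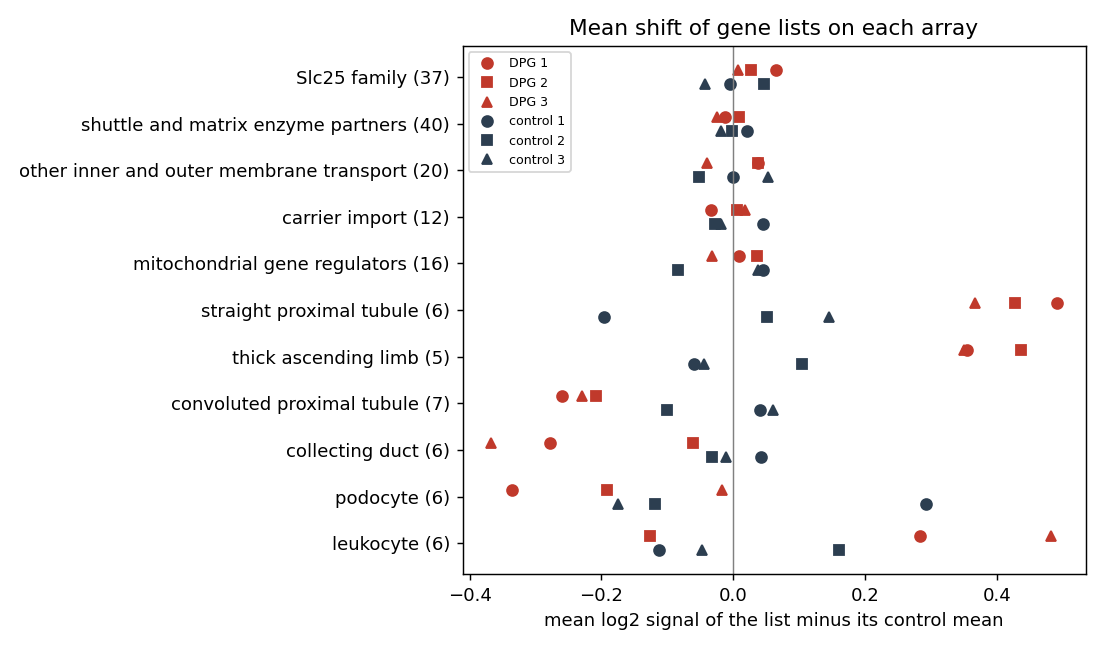
Mean log2 signal of each gene list minus its control mean, for each array, with DPG arrays above control arrays in each row and the number of genes tested in brackets. The carrier family and the other mitochondrial lists stay within 0.1 of 0 on every array, while the straight proximal tubule and thick ascending limb markers lie between 0.35 and 0.49 on the DPG arrays.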

How the data were processed

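Scanner output of 6 one-colour arrays was deposited, made with Agilent Feature Extraction 10.7.1.1 per the file headers (10.7 per the submitters' processing notes). The deposited processed signal is a linear intensity, background-subtracted, spatially detrended and unscaled across arrays, as the deposited headers record. The deposited table of the series holds a ratio of that signal to a constant near each array's 75th percentile, found by setting it against the scanner values (column medians 0.111, 0.108 and 0.112 for DPG 1 to 3 and 0.110, 0.111 and 0.114 for controls 1 to 3). Its genes are uncentred and its direction is that of the scanner signal, and the scaling step itself is not stated in these sources.

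Spots of the array's own controls did not enter, 0 spots were saturated, and log2 signal had the array's 75th percentile subtracted. Of 40406 probes above background in at least 1 group, 23 with an outlier flag were dropped, and the brightest kept probe stood for a gene. Accessions without versions matched 28206 probes to 1 symbol each in the RefSeq table of GRCr8, and 33331 probes kept the identifier of the file. Groups came from the labels. The test of DPG against control was that of limma 3.58.1 under R 4.3.3 (lmFit and eBayes, two-sided), with Benjamini-Hochberg adjustment over all features. The fit was tested on simulated data. An exact permutation test of 3 against 3 cannot go below 0.1. The number of arrays limits the precision.

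Members, classes, lists and motifs were chosen with earlier results of these data known. The result of 1 tested member is not reported here, though the counts and medians include it, and every other tested member is named. Values of every array are given for members at an unadjusted p of 0.05 and for relatives of the same class, and also for other members chosen after their values were seen. From each pathway list up to 4 genes were named, by smallest p among those at an unadjusted p of 0.05. Alternatives were normexp (offset 50) on median pixel signals, quantile and median scaling, no filter, all 6 arrays above background, the mean of a gene's probes, a trended robust variance, the replicate block, the deposited table and each animal left out with the probes unchanged. Same-numbered DPG and control arrays did not deviate together (correlations of -0.023, -0.087 and -0.069 across features). Pairs with unlike numbers ran from -0.063 to 0.13. With so few arrays this cannot show whether the numbers pair the animals, and the main fit did not pair them.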

Additional observations from a re-analysis of the deposited data

How the results depend on the processing

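No feature passed the adjusted threshold in any setting that kept all 6 arrays, and the count ran from 0 to 1 with an animal left out. The 1 call, without DPG 2, was the transcript XM_344619, named after its values were seen. The count of features at an unadjusted p of 0.05 was 3669 and ran from 2537 to 3914 with an animal left out and from 2987 (replicate block) to 4491 (normexp) otherwise. Members with higher signal in DPG at that p numbered 3, with 4 under normexp (Slc25a38, Slc25a27, Slc25a39 and Slc25a51), 2 under quantile scaling, no filter, all 6 arrays above background and the trended robust variance, 1 under the replicate block, and from 1 to 3 with an animal left out, where 1 came without control 1. Under that block Slc25a27, Slc25a33 and Slc25a34 were not past that p and Slc25a54 was. Whether the replicate numbers pair the animals cannot be told from these data. Members with lower signal numbered 1, with 2 under normexp (Slc25a34 and Slc25a20), and from 0 to 3 with an animal left out (0 without DPG 2 or control 1, 3 without DPG 3). Members whose groups did not overlap numbered 6, and from 7 to 13 with an animal left out, where fewer arrays separate more easily. That count was 11, 10 and 12 without DPG 1, 2 and 3, where 27.6%, 29.1% and 34.3% of all features were separated, and 7, 13 and 11 without controls 1, 2 and 3, where 28.1%, 30.8% and 30.8% were. The family's median of 0.019 ran from -0.0042 (mean of a gene's probes) to 0.047 (normexp) with all arrays and from -0.0099 to 0.047 with an animal left out, in each case a move from the main value of less than the SD within groups of the family's mean shift (0.038). Over 553 single-member comparisons with an alternative, 521 stayed on their side of an unadjusted p of 0.05, 20 were no longer past it, 12 were newly past it and 0 reversed a difference past it. The causes were not tested. Slc25a27 and Slc25a2 were left out when all 6 arrays had to be above background. A slide block could not be fitted, since each slide holds 1 group. Signal over background limits Slc25a2, Slc25a27, Slc25a43 and Slc25a54, which lie close to it.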
